A study of Homo sapiens with 8 samples.

Results

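The regions described here were called in the list of 1 library only and lay more than 5000 bp from any region called in all 8 libraries. They were thus selected on the authors' calls and positions, from the same lists that are described here. They were found by merging the 8 region lists on chromosomes 1 to 22 and X wherever regions overlapped by at least 1 bp. Of 50523 merged regions, 16023 were called in exactly 1 list, and 15487 of those (96.7%) were also distant by this rule. These 15487 distant single-library regions made up 30.7% of all merged regions. The lists came from chromatin immunoprecipitation sequencing (ChIP-seq) of MM1S, an established line of human multiple myeloma cells, with an antibody to histone H3 trimethylated at lysine 4 (H3K4me3). In 3 libraries the cells had been given 50 uM KDM5-C70 for 7 days, and in 5 libraries the vehicle DMSO, with no duration of its own in the labels. Nothing in the labels says that the libraries came from separate cultures, so p-values measure only the spread between these libraries.

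H3K4me3 is placed by the SET1 and MLL methyltransferase complexes, mainly around the start sites of active genes and at CpG islands, and it is removed by the KDM5 demethylases. KDM5-C70 inhibits the KDM5 enzymes. Away from promoters the mark is usually weak, and a peak caller works closest to its limit there. A distant region in a single list can therefore be a place where the mark is present at a low level or a chance excess of reads, and the lists alone do not separate the 2 readings. Read totals and a control library were not analysed here, the depth behind the lists is unknown, and that question was not tested. The membership rule used only calling and distance, not treatment, and calling itself is not given as a finding. With 5 DMSO and 3 KDM5-C70 lists, a DMSO region still met more lists of its own treatment that could end its membership. Without KDM5-C70 3, KDM5-C70 2 had 3647 members and not 2079. Without KDM5-C70 2, KDM5-C70 3 had 6656 and not 5208, and without DMSO 3, DMSO 4 had 1802 and not 1332. Library values are thus not independent, and the part of group size in treatment differences was not tested. No gene was assigned to a region, since the gene table used here is on a later genome build than GRCh37, the build of the lists.

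Before the results, 2 features of the libraries bear on them. By the overlap of their whole lists, DMSO 1, DMSO 2 and KDM5-C70 1 resembled each other, and so did DMSO 3, 4 and 5 with KDM5-C70 2 and 3, and this grouping was recognised from the data only. List lengths lay between 15323 (DMSO 2) and 37948 (KDM5-C70 3) regions. Values are therefore given for every library, and group differences also within these 2 sets of libraries.

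The number of distant single-library regions spread widely within each treatment and did not separate the treatments. DMSO libraries 1 to 5 had 2673, 335, 1959, 1332 and 758 of them. KDM5-C70 libraries 1 to 3 had 1143, 2079 and 5208. KDM5-C70 3 was highest and alone held 33.6% of all members, DMSO 2 was lowest with 2.16%, and DMSO 1 lay above KDM5-C70 1 and 2, so the groups overlapped. KDM5-C70 libraries had a mean of 2810 ± 2129 (SD, n = 3) and DMSO libraries of 1411 ± 933 (SD, n = 5). The difference was within the spread (2-sided exact permutation p = 0.321 over 56 splits, adjusted p = 0.857 over 8 measures). The smallest p that 56 splits allow is 0.0357, so an adjusted p under 0.05 would need most of the 8 measures to separate completely. The difference in number of 1399 was 589 without KDM5-C70 3, 2362 without KDM5-C70 2 and 2218 without KDM5-C70 1. When all lists were cut to regions with a -log10 q-value of 5 or more and the rule was applied again, it turned to -1162. Those cut lists held 3028, 7036 and 3661 regions in KDM5-C70 1 to 3, and 6394 to 19917 in the DMSO libraries. Few regions were then called in all 8 lists. Members lay a median of 33334600 bp (DMSO 2) to 39239000 bp (DMSO 4) from one, so the distance rule excluded little. As a share of the cut lists, members were higher with KDM5-C70 by 7.67 percentage points (exact permutation p = 0.286). Within the sets of libraries, with full lists, the number differed by 2294 for DMSO 3, 4 and 5 against KDM5-C70 2 and 3. The same difference was -361 for DMSO 1 and 2 against KDM5-C70 1.

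When list length was taken into account, KDM5-C70 1 moved above DMSO 3 and DMSO 4, and the order was otherwise unchanged. As a share of their own list the members were 12.7% in DMSO 1, 2.19% in DMSO 2, 6.05% in DMSO 3, 4.39% in DMSO 4 and 2.69% in DMSO 5. In KDM5-C70 1, 2 and 3 they were 6.36%, 6.47% and 13.7%. DMSO 1 has the third shortest list but the second highest share. The means of 8.85 ± 4.22% (SD, n = 3) and 5.61 ± 4.26% (SD, n = 5) differed by less than the spread (exact permutation p = 0.25, adjusted p = 0.857). DMSO 1 alone made the groups overlap, since all KDM5-C70 shares lay above those of DMSO 2, 3, 4 and 5. With DMSO 1 left out, the difference was 4.90 percentage points (exact permutation p = 0.0571, adjusted p = 0.457). That p is the smallest that the remaining libraries allow. Among DMSO 3, 4 and 5 and KDM5-C70 2 and 3, both KDM5-C70 shares lay above all DMSO shares. In the other set, KDM5-C70 1 lay between DMSO 1 and DMSO 2.

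**Figure D1:**
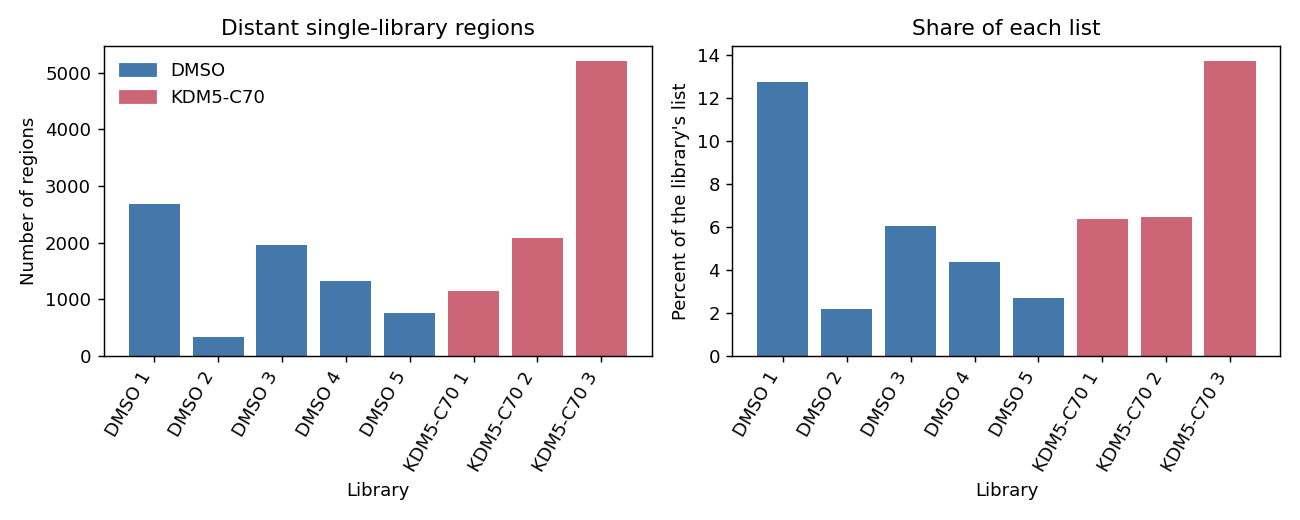
Number of distant single-library regions (left) and their percent of the library's own list (right) for each of the 8 libraries, with DMSO in blue and KDM5-C70 in red; each bar is 1 library. KDM5-C70 3 has 5208 regions and DMSO 2 has 335, and DMSO 1 has the second highest share (12.7%) after KDM5-C70 3 (13.7%).

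Distant single-library regions were short, and many had exactly the shortest width in the lists. That width was 146 bp in every list, a common floor below which no region was called. Whether the caller's settings fixed it is not stated, so a width of 146 bp is not read as a property of the chromatin. In all, 4461 of the 15487 members (28.8%) were 146 bp wide and 6422 (41.5%) were at most 200 bp. At exactly 146 bp were 25.4%, 19.1%, 20.4%, 42.2% and 34.3% of members in DMSO 1 to 5, and 39.7%, 35.4% and 25.1% in KDM5-C70 1 to 3. DMSO 4 was highest and DMSO 2 lowest, so the KDM5-C70 values lay inside the DMSO range. KDM5-C70 libraries averaged 33.4 ± 7.51% (SD, n = 3), while the 5 DMSO libraries averaged 28.3 ± 9.81% (exact permutation p = 0.5, adjusted p = 1). In the rest of each list, regions at 146 bp made up 1.16% to 3.64%, and among regions called in all 8 lists 0% to 0.663%.

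The median width of members was 271, 293, 248, 177.5 and 203.5 bp in DMSO 1 to 5 and 225, 215 and 279 bp in KDM5-C70 1 to 3. The other regions of the same lists had medians of 812 to 962 bp, and those called in all 8 lists 840 to 1581 bp. Distant regions called in exactly 2 lists lay near the members, with medians of 212 to 420 bp. The number of lists is what defined the members, so these widths are given as a description. KDM5-C70 medians averaged 239.7 ± 34.4 bp (SD, n = 3) and DMSO medians 238.6 ± 47.6 bp (SD, n = 5). The 2 treatments differed by 1.07 bp in this measure (exact permutation p = 1) and in the share up to 200 bp by 0.87 percentage points (exact permutation p = 0.929).

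**Figure D2:**
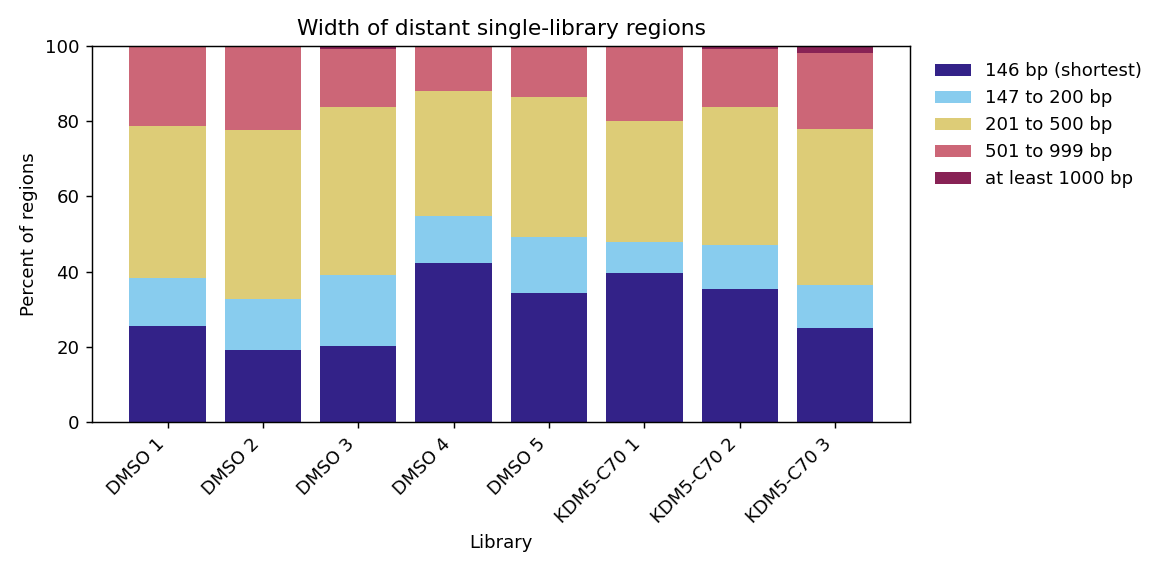
Percent of each library's distant single-library regions in 5 width classes, stacked to the whole; each bar is 1 library. The class at 146 bp, the shortest width in every list, holds between 19.1% (DMSO 2) and 42.2% (DMSO 4).

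Wide members were few and most came from 1 library. At least 1000 bp was reached by 138 members (0.891%), of which 94 were in KDM5-C70 3, 19 in KDM5-C70 2, 14 in DMSO 3, 8 in DMSO 1, 1 each in DMSO 4, DMSO 5 and KDM5-C70 1, and 0 in DMSO 2. An inner segment was present in 52 of these 138. The widest of all, in KDM5-C70 3, lay on chromosome 7 (15823562 to 15825218, GRCh37, counted from 1), was 1657 bp wide, held no inner segment and was 634723 bp from the nearest region shared by all lists. The authors' fold enrichment for it was 1.89. In KDM5-C70 2 the widest member lay on chromosome 10 (91807909 to 91809369, 1461 bp) and in KDM5-C70 1 on chromosome 16 (21846523 to 21847853, 1331 bp). In DMSO 1 it lay on chromosome 3 (165121403 to 165122624, 1222 bp), 1975080 bp from a shared region. DMSO 2 had its widest member on chromosome 7 (4015812 to 4016755, 944 bp), DMSO 4 on chromosome 16 (33707804 to 33708901, 1098 bp) and DMSO 5 on chromosome 1 (143539801 to 143540844, 1044 bp). None of these 7 held more than 146 inner bases. The widest member of DMSO 3 differed from them. It lay on chromosome 6 (112523930 to 112525277, 1348 bp) and held 4 inner segments with 872 bases in all.

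Each deposited region also carries inner blocks, here called inner segments where they exceed 1 bp, and in most libraries few distant single-library regions had one. The share with an inner segment was 7.48%, 22.1%, 72.0%, 10.5% and 11.1% in DMSO 1 to 5 and 3.41%, 12.4% and 65.2% in KDM5-C70 1 to 3. DMSO 3 and KDM5-C70 3 stood far above the other 6 libraries, with 4808 of the 5602 members that had an inner segment. Treatments did not differ by more than this spread (27.0 ± 33.4%, SD, n = 3, against 24.6 ± 27.0%, SD, n = 5, exact permutation p = 0.857). Without these 2 libraries the difference turned from 2.38 to -4.90 percentage points (exact permutation p = 0.533). In the other regions of the lists 80.0% to 95.2% had an inner segment, and DMSO 3 (95.2%) and KDM5-C70 3 (89.8%) did not stand apart there. Distant regions called in exactly 2 lists were also highest in DMSO 3 (77.5% with an inner segment) and KDM5-C70 3 (69.0%), but stood less far apart. DMSO 2 followed with 64.1% and DMSO 1 with 49.3%. KDM5-C70 1 had 28.0%, above KDM5-C70 2 (22.9%), DMSO 5 (20.3%) and DMSO 4 (19.3%). Among members, DMSO 1 and KDM5-C70 1 were the lowest instead. Members minus the rest of the same list gave -64.6 ± 23.7 percentage points (SD, n = 5) for DMSO libraries and -59.3 ± 31.4 (SD, n = 3) for KDM5-C70 libraries (exact permutation p = 0.821).

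Many members of DMSO 3 and KDM5-C70 3 were filled by an inner segment. In these libraries 51.0% and 44.1% of all members were 1 inner segment from end to end, against 1.84% to 14.9% in the other 6. These shares also count members without an inner segment. Filled regions were not particular to members. Distant regions called in exactly 2 lists were filled at 46.4% in DMSO 3, 32.0% in DMSO 2 and 30.5% in KDM5-C70 3. The other libraries had 3.23% to 12.2% there. In the rest of each list the share was highest in DMSO 3 (24.3%), with 7.97% to 18.1% in the others. Among members, filled ones outnumbered partly filled ones in DMSO 3 and KDM5-C70 3 (20.9% and 21.1% partly filled). The same held in DMSO 2 (14.9% against 7.16%) and KDM5-C70 1 (1.84% against 1.57%). In DMSO 1, 4 and 5 and KDM5-C70 2, partly filled members were the more frequent. At the shortest width of 146 bp the contrast was larger. Of the members at 146 bp, 345 of 399 (86.5%) in DMSO 3 and 1081 of 1307 (82.7%) in KDM5-C70 3 were inner segments, while in DMSO 4 it was 12 of 562 (2.14%) and in KDM5-C70 2 it was 27 of 735 (3.67%). DMSO 2 lay between, with 31 of 64 (48.4%). In median width, members with an inner segment were narrower than those without in 5 of 8 libraries, which were DMSO 1 (187 against 284 bp), DMSO 2 (152 against 357 bp), DMSO 3 (208 against 363 bp), KDM5-C70 1 (152 against 236 bp) and KDM5-C70 3 (211 against 394.5 bp). They were wider in DMSO 4 (227 against 162.5 bp), KDM5-C70 2 (235 against 205 bp) and, by little, DMSO 5 (207 against 203 bp). The members' share of called bases in inner segments was 47.1% in DMSO 3 and 37.1% in KDM5-C70 3, and 1.78% to 10.5% in the others. How each list was called is not stated in the sources used here, and its part in this contrast was not tested.

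**Figure D3:**
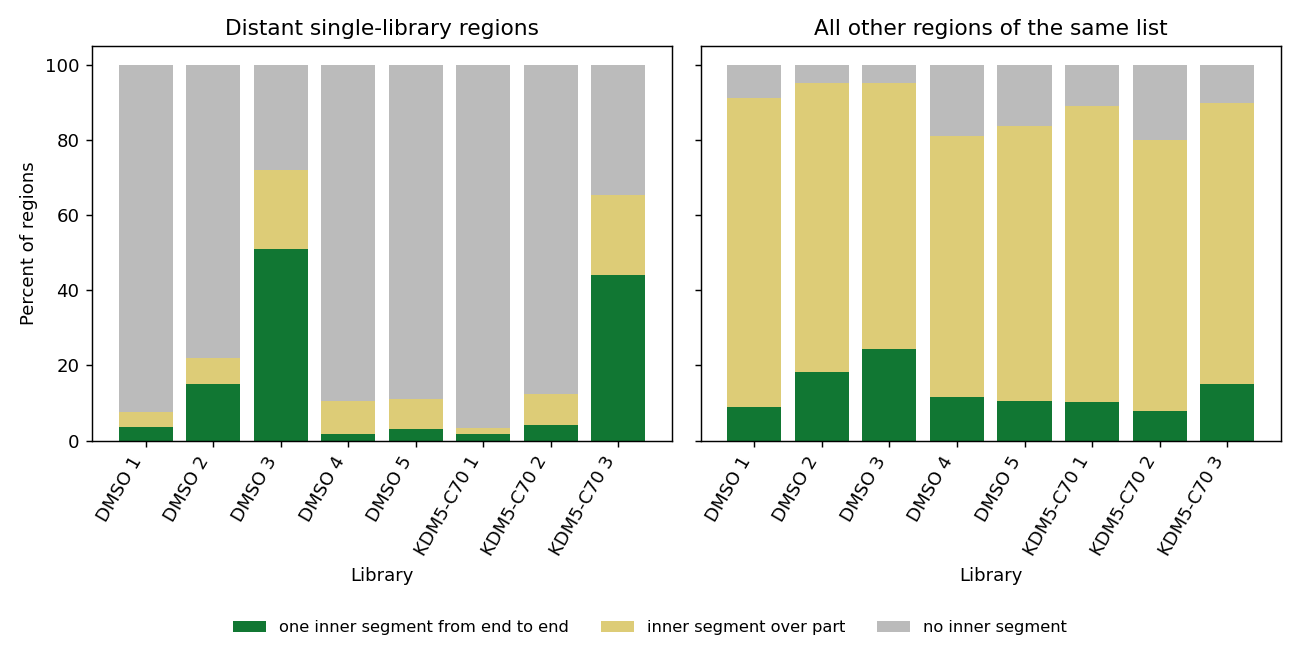
Percent of regions with 1 inner segment from end to end (green), with inner segments over part of the region (yellow) and with none (grey), for distant single-library regions (left) and all other regions of the same list (right); each bar is 1 library. DMSO 3 and KDM5-C70 3 have an inner segment in 72.0% and 65.2% of members, and the other libraries in 3.41% to 22.1%.

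The members with the most inner bases show how far inner segments extended. In KDM5-C70 3 the region on chromosome 1 (153315964 to 153316910) was 947 bp wide with 691 inner bases in 2 segments, and the authors' fold enrichment was 3.16. The one in KDM5-C70 2 lay on chromosome 4 (28343698 to 28344462), 527905 bp from a shared region, with 688 of its 765 bases in an inner segment. In DMSO 1 it lay on chromosome 19 (36909336 to 36909802), was an inner segment over all of its 467 bp, and had a fold enrichment of 4.14 with a -log10 q-value of 20.5. The other libraries reached 362 inner bases in DMSO 4 (chromosome 15, 68260376 to 68260829), 321 in DMSO 5 (chromosome 2, 235811613 to 235811952), 260 in KDM5-C70 1 (chromosome X, 155260088 to 155260365) and 243 in DMSO 2 (chromosome 2, 91612774 to 91613033). Their fold enrichment was 2.61 in DMSO 4, 3.22 in DMSO 5, 3.01 in DMSO 2 and 1.89 in KDM5-C70 1. The -log10 q-value of the region in KDM5-C70 1 was only 0.827. More than 1 inner segment was found in 203 of the 15487 members (1.31%), of which 148 were in KDM5-C70 3 and 48 in DMSO 3.

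The deposited values per region did not mark the members as much weaker than the rest of their list. These are the authors' own values for each region. They were not set against region width, in which members (medians of 177.5 to 293 bp) and the rest (812 to 962 bp) differed widely. The comparison thus does not show that members carried nearly as much of the mark. The median fold enrichment of members was 2.89 in DMSO 1, where the rest of the list had 3.13, and 2.32 in KDM5-C70 3, where the rest had 2.40. In every library the member median was lower than that of the rest, by little. A -log10 q-value of at least 5 was reached by 56.1% of members and 65.9% of other regions in DMSO 1. In KDM5-C70 3 it was reached by 13.1% and 9.31%, and in KDM5-C70 1 by 21.3% and 16.9%. By this value members thus passed less often than the rest in DMSO 1, 3, 4 and 5, and more often in KDM5-C70 1 and 3. In DMSO 2 (42.69% against 42.12%) and KDM5-C70 2 (22.99% against 22.16%) members and the rest were nearly equal. These differences were not tested. The median -log10 q-value of members was below that of the rest in all 8 libraries, for example 1.78 against 2.06 in KDM5-C70 3, 2.34 against 2.68 in KDM5-C70 1 and 6.09 against 7.16 in DMSO 1.

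Members were compared with the 536 single-library regions that lay within 5000 bp of a shared region, which were called in as few lists. The share at 146 bp was higher among the distant regions in 8 of 8 libraries, with a mean of 30.2% against 15.8% and a difference of 14.4 ± 6.42 percentage points (SD, n = 8, exact sign-flip permutation p = 0.00781, adjusted p = 0.0234 over 3 measures). This difference depended on how lists were cut: with lists of equal length it was -0.985 (7 libraries, by the -log10 p-value) and 1.24 percentage points (by width), and neither passed. Median width (-19.2 bp, exact permutation p = 0.172) and the share with an inner segment (-6.68 percentage points, exact permutation p = 0.398) did not differ beyond the spread. Near a shared region the share with an inner segment was 56.4% in DMSO 3 and 32.0% in KDM5-C70 3, in KDM5-C70 3 well below the 65.2% of its distant regions. Near regions were few in DMSO 2 (7) and KDM5-C70 1 (13).

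The 5000 bp limit cut through a continuous range of distances. Just beyond it lay regions at 5016 bp on chromosome 1 in KDM5-C70 1 (179840546 to 179841132), on chromosome 2 in KDM5-C70 2 (120764006 to 120764299) and on chromosome 8 in KDM5-C70 3 (128800711 to 128801440). Just within it lay regions at 4996 bp on chromosome 7 in DMSO 1 (102218075 to 102218555), at 4986 bp on chromosome 15 in DMSO 3 (45027886 to 45029120) and at 4984 bp on chromosome 8 in DMSO 4 (62620626 to 62620771). Most members were much farther away. Over 100 kb from a shared region lay 7311 members (47.2%), and over 1 Mb 798 (5.15%). The median distance was 95197, 76918, 60333, 95128 and 83080 bp in DMSO 1 to 5 and 102640, 84327 and 101036 bp in KDM5-C70 1 to 3. Distance is part of the membership rule, so these medians are given as a description.

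Over all libraries, chromosomes dense in shared regions were mostly also dense in distant single-library regions, over a narrower range. Density is given per Mb between the first and the last called base of a chromosome in any list. Chromosome 19 had the most shared regions per Mb (14.9) and chromosome 13 the fewest (2.53). For members the range was narrower, from 2.90 per Mb on chromosome 14 to 8.00 on chromosome 22. Spearman's rho between both densities was 0.63 over the 23 chromosomes, which share the same libraries. Chromosomes 22, 19 and 17 were high in both, with 8.00, 7.81 and 6.58 members per Mb, and chromosomes 13 and X low in both, with 3.30 and 3.37. The shares of the totals differed on some chromosomes. Chromosome 19 held 6.39% of shared regions and 2.98% of members, and chromosome 18 held 1.51% of shared regions and 2.45% of members. On chromosome 21 the shares were 1.03% and 1.96%.

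Libraries differed in this pattern, above all on chromosome 14, where 1 of them had no member. DMSO 1 had 6 of its 2673 members there (0.224%), DMSO 2 had 0 of 335, which by counting error allows up to 0.896%, and KDM5-C70 1 had 9 of 1143 (0.787%). The shares were 2.50%, 2.18% and 1.45% in DMSO 3, 4 and 5, and 2.02% and 2.11% in KDM5-C70 2 and 3. The first 3 libraries thus lay below the other 5, in both treatments. Their other regions did not show it, with 2.75%, 2.76% and 2.77% of the rest of the list on chromosome 14 in DMSO 1, DMSO 2 and KDM5-C70 1, against 2.37% to 2.44% in the other 5. The same 3 libraries had few members on chromosome X, with 1.46%, 0.896% and 0.962%, where the other 5 had 2.30% to 5.01%. On chromosome 7 the order turned, with 9.69% in DMSO 1, 11.04% in DMSO 2 and 8.22% in KDM5-C70 1, although DMSO 5 (8.44%) also lay in that range, and the other 4 had 5.63% to 7.13%. DMSO 1 had 1.63 members per Mb on chromosome 7 and 0.068 on chromosome 14.

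The ratio of member density between the densest and the sparsest autosome was 24.7 in DMSO 1, 12.01 in DMSO 5 and 6.97 in KDM5-C70 1. It was 3.16 in DMSO 3, 2.87 in KDM5-C70 2, 2.51 in DMSO 4 and 1.91 in KDM5-C70 3. The sparsest autosome of DMSO 5 was chromosome 13 with 6 members, so its ratio rests on few regions, and DMSO 2 has no ratio because chromosome 14 had none. KDM5-C70 3, with the most members, was the most even.

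Within chromosomes the members were also unevenly placed in some libraries. On chromosome 1, 225 of 319 members of DMSO 1 (70.5%) and 53 of 59 of DMSO 2 (89.8%) lay after the longest stretch without any call (121485478 to 142535871). The share was 69.6% in DMSO 5, 60.8% in KDM5-C70 1 and 53.6% to 57.5% in the other 4. The other regions of the lists lay there at 46.6% to 50.9% in all 8 libraries. On chromosome 13, DMSO 1 had 0 members between 40 and 60 Mb and 25 between 100 and 120 Mb, while KDM5-C70 3 had 26 and 24. The copy number of chromosomes was not analysed here.

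**Figure D4:**
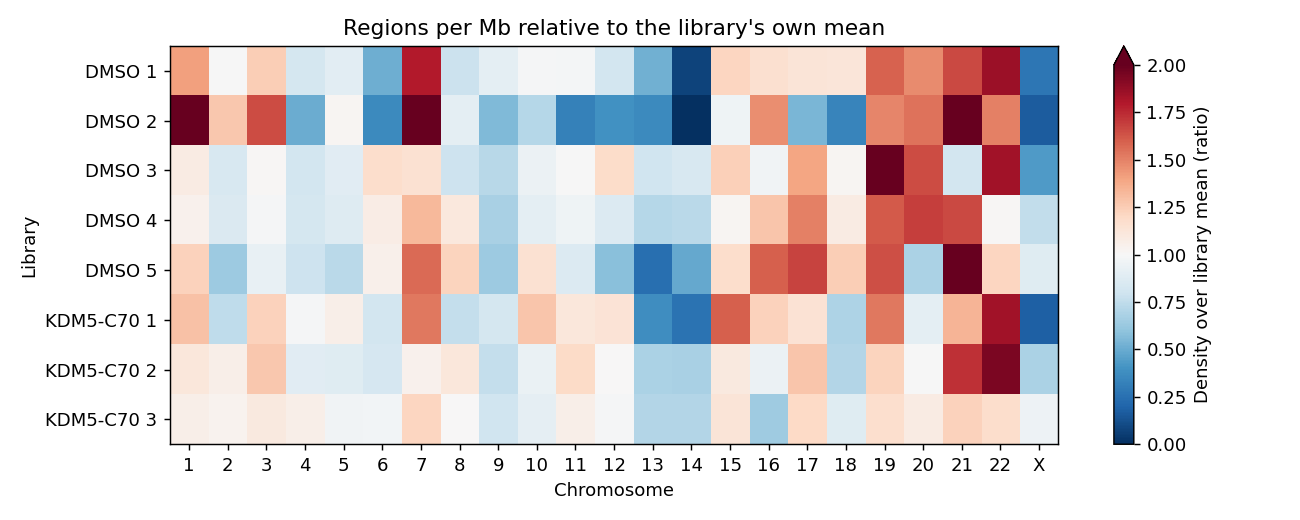
Distant single-library regions per Mb of each chromosome, divided by the library's own mean density, for the 8 libraries (rows) and 23 chromosomes (columns); blue is below and red above the library's mean, and values over 2 share the darkest red. DMSO 1, DMSO 2 and KDM5-C70 1 are low on chromosomes 14 and X and high on chromosome 7, and KDM5-C70 3 is the most even.

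Between treatments, 2 of 23 chromosomes (8.7%) had shares of members that did not overlap between groups, and 0 of 23 passed an adjusted exact permutation p under 0.05 (at an unadjusted p under 0.05 there were 2, and no adjusted p was lower than 0.411). Since no unadjusted p can be lower than 0.0357, this threshold could be met only if most chromosomes separated completely. The count of 0 therefore decides little. On chromosome 4 the shares were 6.39%, 5.72% and 6.85% in KDM5-C70 1 to 3 and 5.35%, 3.28%, 5.31%, 5.33% and 5.15% in DMSO 1 to 5. All 3 KDM5-C70 libraries were higher, by a mean of 1.44 percentage points (exact permutation p = 0.0357, adjusted p = 0.411). On chromosome 11 they were 5.07%, 5.44% and 4.84% with KDM5-C70 and 4.49%, 1.49%, 4.54%, 4.35% and 3.96% with DMSO, which differed by 1.35 points on average (exact permutation p = 0.0357, adjusted p = 0.411). DMSO 2, the library with the fewest members, was lowest on both, with 11 and 5 regions. With lists of equal length no chromosome separated.

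The windows with the most members lay near a chromosome end or near a long uncalled stretch. The 5 windows of 1 Mb with the most members were 2 on chromosome 21 (46000001 to 47000000 with 29 and 44000001 to 45000000 with 25), 2 on chromosome 16 (33000001 to 34000000 with 22 and 32000001 to 33000000 with 21) and 1 on chromosome 1 (143000001 to 144000000 with 20). Those on chromosome 21 drew most on KDM5-C70 3 (10 and 7), followed by KDM5-C70 2 in the first (6) and by KDM5-C70 2 and DMSO 1 in the second (5 each). Those on chromosomes 16 and 1 drew most on DMSO 1, with 6, 7 and 8 members, and their centres lay within 3 Mb of the chromosome's longest uncalled stretch. Its length differed widely, from 21.1 Mb on chromosome 1 to 0.570 Mb on chromosome 15 and 0.385 Mb on chromosome 22. The next shares thus mix long and short stretches. Of all members, 26.9% in DMSO 2 and 12.2% in DMSO 1 lay within 5 Mb of the longest uncalled stretch, against 9.39% and 9.15% of the rest of their lists. In the other 6 libraries the shares of members were 7.15% to 9.54%. Within 5 Mb of the first or last called base of a chromosome, members were less frequent than the rest of the list in 5 of 8 libraries, among them KDM5-C70 3 (9.72% against 12.7%) and KDM5-C70 2 (11.1% against 12.8%). They were more frequent there in DMSO 2, 4 and 5, with 16.7%, 14.4% and 17.9% against 13.6%, 13.1% and 13.4%. These measures of distance were chosen after the windows had been seen.

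Distant single-library regions were mostly isolated, but some lay beside a region of another library. For 8713 members (56.3%) no region of any list lay within 10000 bp, and for 2607 (16.8%) one lay within 1000 bp. KDM5-C70 2 had the highest share with a region within 1000 bp (31.8%), and KDM5-C70 1 (3.15%) and DMSO 1 (4.34%) the lowest. When regions within 1000 bp were joined, 12920 members were counted in place of 15487.

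Among members alone, neighbours within 1000 bp linked DMSO 3, 4 and 5 with KDM5-C70 2 and 3 in both treatments. Of the members of KDM5-C70 2, 225 of 2079 (10.8%) had a member of KDM5-C70 3 within 1000 bp. The same held for 8.33% of members of DMSO 4, 6.86% of DMSO 5 and 6.43% of DMSO 3, and for 0.449% of DMSO 1, 0.299% of DMSO 2 and 0.175% of KDM5-C70 1. By this share the KDM5-C70 pair was the highest, with DMSO 4 next, and this single pair allows no test over libraries. KDM5-C70 3 also had the most members (5208) and thus the most possible neighbours. The shares were not set against the number of possible pairs, so they do not rank libraries by closeness. In the other direction, 4.42% of members of KDM5-C70 3 had one of KDM5-C70 2 nearby, 2.42% one of DMSO 3, 2.11% one of DMSO 4 and 1.02% one of DMSO 5. KDM5-C70 1 had 3 of its 1143 members beside those of the other KDM5-C70 libraries. Pairs of members from different libraries within 1000 bp numbered 458 across treatments, 234 within KDM5-C70 and 108 within DMSO, and these counts were not set against the number of possible pairs.

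**Figure D5:**
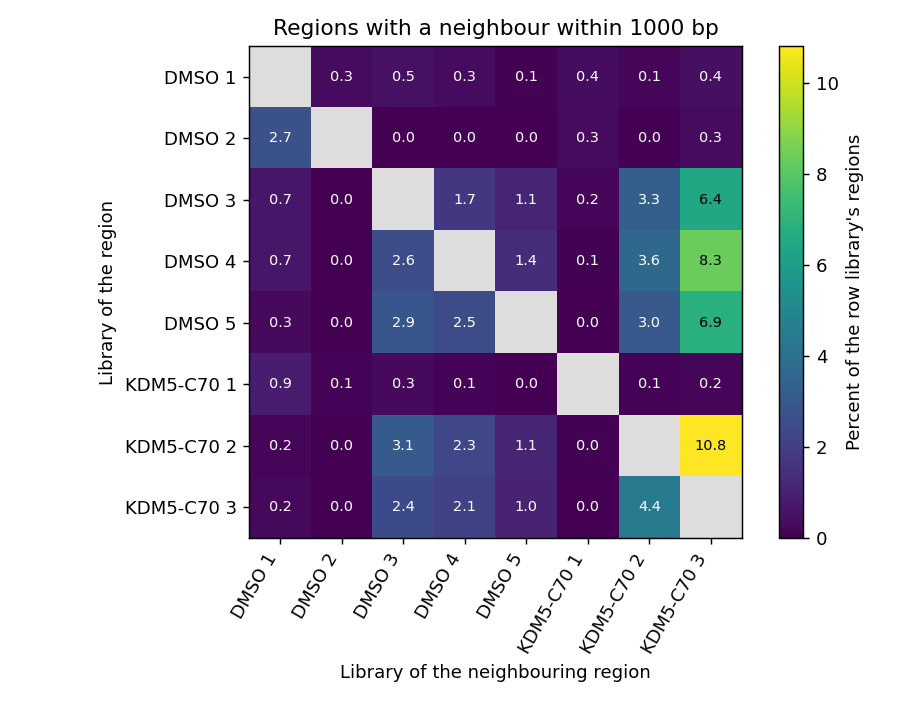
Percent of the distant single-library regions of each library (rows) that have such a region of another library (columns) within 1000 bp; grey cells are a library with itself. The highest value is 10.8% for KDM5-C70 2 beside KDM5-C70 3, and DMSO 1, DMSO 2 and KDM5-C70 1 share few neighbours with the other 5 libraries.

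The pairs that covered the most bases show what such neighbours look like. On chromosome 2, KDM5-C70 3 had a region of 1090 bp (102444596 to 102445685) and KDM5-C70 2 one of 842 bp (102445812 to 102446653), 126 bp apart. On chromosome 8, a region of 1156 bp in KDM5-C70 2 (34733580 to 34734735) lay 27 bp from one of 424 bp in KDM5-C70 3 (34734763 to 34735186), which was an inner segment over its whole width. On chromosome 1, a region of 164 bp in KDM5-C70 3 (192435796 to 192435959) lay 77 bp from one of 1330 bp in KDM5-C70 2 (192436037 to 192437366). Further KDM5-C70 pairs lay on chromosome 5 (126323391 to 126324759 in KDM5-C70 3, with 126325437 to 126325582 in KDM5-C70 2) and chromosome 8 (101449958 to 101450631 in KDM5-C70 2, with 101450731 to 101451491 in KDM5-C70 3). These 5 stretches were called in KDM5-C70 2 and 3 only as distant regions of 1 list each, although the 2 calls lay at most 126 bp apart in 4 of them. The DMSO pair with the most bases lay on chromosome 5, with 752 bp in DMSO 2 (34180543 to 34181294) and 800 bp in DMSO 1 (34181442 to 34182241). The next DMSO pair lay on chromosome 1, with 745 bp in DMSO 3 (88182706 to 88183450) and 424 bp in DMSO 5 (88183517 to 88183940). The other 3 lay on chromosomes 2 (162851305 to 162853020 from end to end, DMSO 3 and DMSO 1), 19 (48407156 to 48408315, DMSO 1 and DMSO 2) and 1 (117102114 to 117104095, DMSO 5 and DMSO 3).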

How the data were processed

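The submitters' processing notes name GRCh37 with HOMER 4.8, MACS2 2.1.0, Bowtie 1.1.2 and Trim Galore 0.40; settings and controls are not stated. The deposited lists have 15 columns, 1 list per library. Positions and inner blocks are the authors' values in bp, the deposited fold enrichment is a ratio, and the authors also give -log10 of the p-value and q-value. The deposited display score was not used. Of 215568 regions, 255 on other sequences were left out.

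Distance counts the bases between 2 regions, and blocks of 1 bp, which mark region ends, were not counted as inner segments. Each library gave 1 value per measure. Treatments were tested by 2-sided exact permutation (56 splits, smaller tail doubled) and distant against near regions by exact sign flips over 8 libraries (smallest p 0.00781), with Benjamini-Hochberg adjustment over 8 measures, 23 chromosomes or 3 near comparisons. Named regions are, per library, the widest and that with the most inner bases, then those nearest the distance limit, the 5 fullest windows and the widest close pairs. Merging was checked on simulated intervals (1380 of 1380 planted regions recovered). Alternatives were other limits, joining, stricter or equal lists, inner segments, no chromosome X, a replicate block and each library left out. Members and measures were chosen with earlier results of these data known. Tools were scipy 1.17.1, pandas 2.3.3, numpy 2.4.6, matplotlib 3.10.9 and Python 3.11.15.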

Additional observations from a re-analysis of the deposited data

Results flagged for a closer look

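The 5 DMSO libraries were searched for a value that stands apart, for 8 measures and 23 chromosome shares. Of these 31 groups of values 7 were marked. The critical value is set for chance to mark about 5% of independent groups with equally spread values. That is not met here, since chromosome shares of a library sum to the whole and those of DMSO 2 rest on few regions. The number marked is thus not set against chance. DMSO 3 stood apart with 72.0% of members holding an inner segment (others 7.48% to 22.1%) and 47.1% of member bases in inner segments (others 3.94% to 10.5%). It also stood apart with 4.59% of members on chromosome 19 (others 2.99% to 3.30%). DMSO 2, with 335 members, stood apart with 3.28% on chromosome 4 (others 5.15% to 5.35%), 1.49% on chromosome 11 (others 3.96% to 4.54%) and 0.896% on chromosome 18 (others 2.71% to 3.30%). DMSO 5 stood apart with 1.45% on chromosome 20 (others 3.14% to 3.60%).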

How the results depend on the processing

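No difference between treatments in the 8 measures passed the adjusted threshold in any setting run (smallest adjusted p 0.286). With so few libraries that threshold could be met only if most measures separated completely, and in some settings not at all. Values here are KDM5-C70 minus DMSO, in percentage points for shares, and the cause of the sign changes was not tested. With the limit at 10000 bp, median width gave -1.83 bp, and distant minus near regions with an inner segment 1.04. Joining within 1000 bp gave -0.0643 for bases in inner segments. Keeping regions with a -log10 q-value of 5 or more (3028 to 19917 per library) gave -1162 members, -46.5 bp of median width, -11.8 for members with an inner segment, -17.2 for bases in inner segments and -2862700 bp of median distance. Relative to the rest of the list they gave -5.17 (inner segment) and 89.8 bp (median width), and 5 chromosomes did not overlap. Near regions were too few there for a comparison, since few regions were called in all 8 cut lists and the distance rule excluded little. Equal lists by the -log10 p-value gave -4.72 (inner segment), -7.18 (inner bases) and -2.59 (inner segment relative to the rest), and 0 chromosomes. Distant minus near regions gave 8.5 bp and, at 146 bp, -0.985. Equal lists by width gave -2.93 (at 146 bp), -7.96 (up to 200 bp), -6.49 (inner segment), -9.24 (inner bases), -5.23 (inner segment relative to the rest), 22.4 bp (median width relative to the rest) and 0 chromosomes. Distant minus near regions gave 12.4 bp and, at 146 bp, 1.24. Inner segments alone gave -1.003 (up to 200 bp) and 1 chromosome.

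With the replicate block (numbers 1 to 3 paired, DMSO 4 and 5 left out) median width gave -31 bp, members with an inner segment -6.84 and inner bases -4.99, where 3 pairs allow no p below 0.25, and no call changed. Deviations in width of same-numbered libraries correlated at 0.37, -0.31 and 0.32 over the 13729 shared regions, so the numbers were not taken as pairs.

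Comparisons within sets of libraries were added after the data were seen. DMSO 3, 4 and 5 against KDM5-C70 2 and 3 gave 2294 members, 5.72 (share of the list), 37.3 bp of median width, -2.06 (at 146 bp), -5.99 (up to 200 bp) and 7.61 (inner segment). DMSO 1 and 2 against KDM5-C70 1 gave -361 members, -1.10 (share of the list), -57 bp, -11.4 (inner segment) and -5.44 (inner bases), with no test. Without DMSO 3 and KDM5-C70 3 median width gave -16.2 bp, inner segment -4.90 and inner bases -2.20.

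Leaving out 1 library at a time gave 589 to 2362 members, 1.97 to 5.94 (share of the list), -12.2 to 29.6 bp of median width, 2.03 to 8.70 (at 146 bp), -2.28 to 3.89 (up to 200 bp), -14.4 to 13.7 (inner segment), -9.02 to 7.54 (inner bases) and -10.5 to 18.1 (inner segment relative to the rest). Between 1 and 4 chromosomes did not overlap. Distant minus near regions at 146 bp stayed between 12.5 and 16.7 and passed each time.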
